A study of Mus with 4 samples.

Results

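The genes described here are the 10 SR splicing factor genes *Srsf1*, *Srsf2*, *Srsf3*, *Srsf4*, *Srsf5*, *Srsf6*, *Srsf7*, *Srsf9*, *Srsf10* and *Srsf11*, and their m6A peaks in interscapular brown adipose tissue (iBAT). Members were taken by gene symbol from 2 deposited peak lists. Together they hold 13 of the 18400 peaks of the *Wtap* flox/flox list and 22 of the 18693 peaks of the *Wtap*-BKO list. The experiment was an m6A RNA immunoprecipitation sequencing (MeRIP-seq) of iBAT from 8-week-old C57BL/6 mice on normal chow, with 1 immunoprecipitate and 1 input per genotype, each a pool of 8 mice. The method enriches fragments of poly(A)+ RNA with an m6A antibody, and peaks are the stretches of transcript over-represented among the enriched reads relative to input. Both genotypes were homozygous for the floxed *Wtap* allele, in which exon 4 is flanked by loxP sites. *Wtap* flox/flox mice had no Cre and are called controls, whereas *Wtap*-BKO mice also carried *Ucp1*-iCre, which is active where *Ucp1* is expressed, so cells of iBAT other than brown adipocytes would keep *Wtap*. With 1 pool per genotype there are no replicates, and no difference between genotypes could be tested. The read depth behind the lists is unknown, and neither list gives transcript levels, so the loss of *Wtap* could not be checked from them.

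SR proteins are nuclear RNA-binding proteins with an RNA recognition motif at the N-terminus and a C-terminal domain rich in arginine and serine. They bind exonic enhancers in pre-mRNA and help the spliceosome to choose splice sites, and kinases of the SRPK and CLK families control their location and activity by phosphorylating the arginine/serine domain. Several SR genes restrain their own output through alternatively spliced exons that carry a premature stop codon. WTAP is the subunit that holds the m6A methyltransferases METTL3 and METTL14 in nuclear speckles, where SR proteins also reside, and the nuclear m6A reader YTHDC1 is known to interact with SRSF3 and SRSF10. Sequences under the peaks, exon and UTR annotations and the m6A motif were not analysed here. Positions are given on GRCm38 and relative to the ends of each gene in a RefSeq gene table of that build.

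Peaks were listed for 8 of the 10 SR genes, and each of the 8 had peaks in both genotypes. Among all 11431 genes with a peak in either list, 70.1% had one in both. *Srsf2* and *Srsf3* had none in either list. The numbers of peaks in the control and the *Wtap*-BKO list were 1 and 5 for *Srsf1*, 2 and 3 for *Srsf4*, 2 and 3 for *Srsf5*, 1 and 4 for *Srsf6*, and 3 and 4 for *Srsf11*. *Srsf7* and *Srsf9* had 1 peak in each list, and *Srsf10* went the other way with 2 and 1. Hence 5 of 8 SR genes had more *Wtap*-BKO than control peaks, 1 had fewer and 2 had as many. Over all 8014 genes with peaks in both lists, these shares were 26.3%, 23.2% and 50.6%. At least 3 *Wtap*-BKO peaks were listed for 5 SR genes, against 22.7% of all genes in that list, and at least 3 control peaks for 1 SR gene, against 21.2%.

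**Figure D1:**
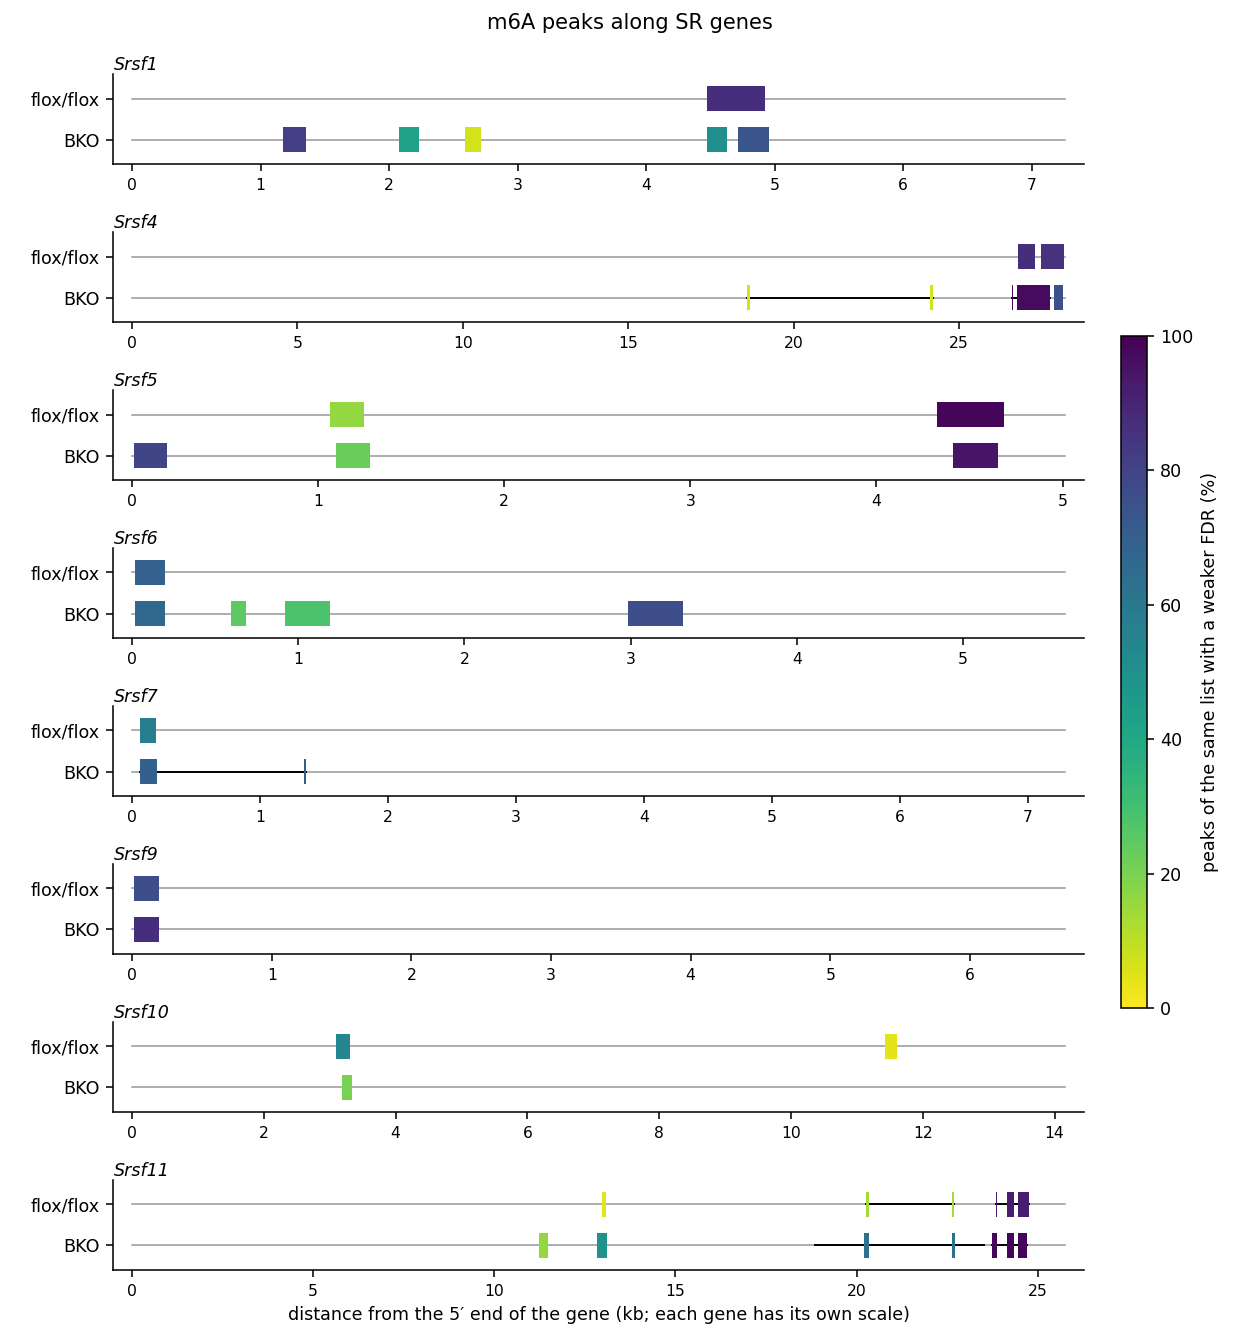
Peaks of the 8 SR genes with a peak, drawn along each gene from its 5ʹ end (kb, 1 scale per gene), with *Wtap* flox/flox peaks above *Wtap*-BKO peaks. Filled blocks are the exonic parts of a peak, black lines join blocks of 1 spliced peak, grey lines are the gene, and the colour is the share of the same list with a weaker false discovery rate. *Srsf1* and *Srsf6* have 3 *Wtap*-BKO peaks each where no *Wtap* flox/flox peak is drawn, and the single peak of *Srsf9* lies at the same bases in both genotypes.

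Peaks of both lists were matched next, and 1 common exonic base on 1 strand was enough for a match; a peak with a match is called found. Of the 13 control peaks, 12 were found in the *Wtap*-BKO list (92.3%, 95% Wilson interval 66.7% to 98.6%), against 67.8% of the whole control list and 76.8% of its peaks on genes with peaks in both lists. Of the 22 *Wtap*-BKO peaks, 13 were found in the control list (59.1%, interval 38.7% to 76.7%), against 68.0% of the whole list and 76.6% of the peaks on genes with peaks in both. The intervals cover counting error only and treat peaks as independent, although peaks of 1 gene share a transcript. The 1 peak listed only for control mice was on *Srsf10*. The 9 listed only for *Wtap*-BKO mice were 3 on *Srsf1*, 3 on *Srsf6* and 1 each on *Srsf4*, *Srsf5* and *Srsf11*. When at least 50% of the exonic bases of a peak had to be shared, 12 control and 12 *Wtap*-BKO peaks were found, and the shares over the whole lists were 59.3% and 62.5%. Peak edges are coarse, since 75.2% of unspliced control peaks and 78.3% of unspliced *Wtap*-BKO peaks had a length that was a multiple of 30 bases or 1 base more. Whether the edges of both lists lie on common positions was not tested.

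In exonic bases, the control peaks of the SR genes covered 3873 and the *Wtap*-BKO peaks 5617, with 3156 in peaks of both. The shared bases made up 81.5% of the former and 56.2% of the latter. Over the whole lists, 61.4% of control and 67.7% of *Wtap*-BKO peak bases were in peaks of the other list. The bases covered only by *Wtap*-BKO peaks lay mostly on *Srsf6*, *Srsf11* and *Srsf1*, with 691, 630 and 481 bases, whereas *Srsf10* had 271 bases covered only by control peaks. Of the *Srsf11* value, 241 bases belonged to a peak without a partner and the rest to wider peaks at shared places.

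**Figure D2:**
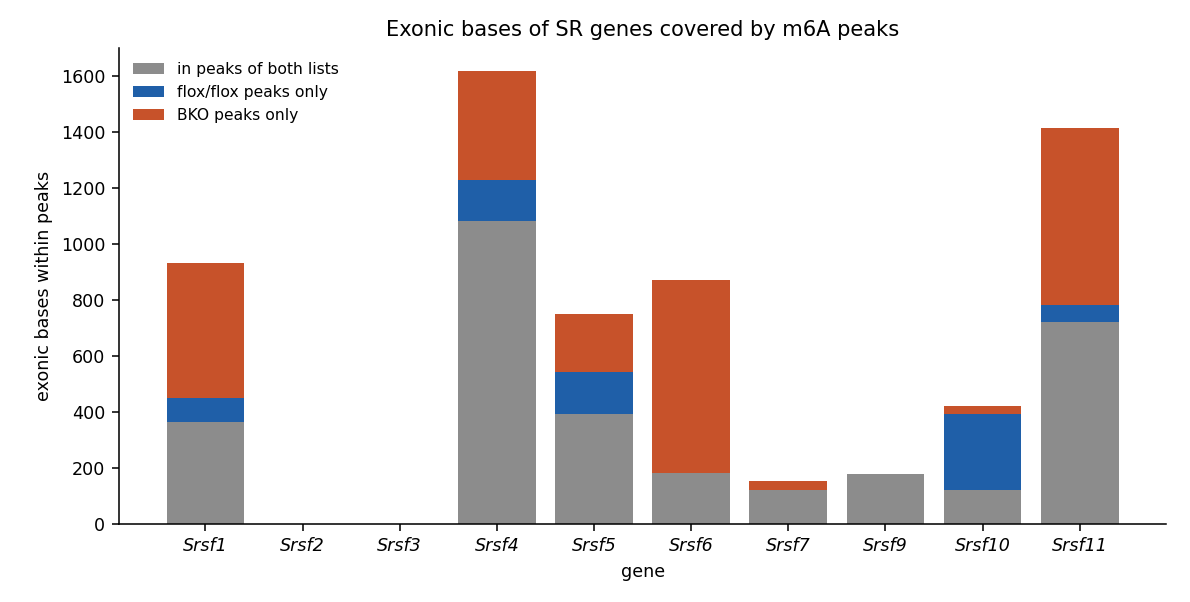
Exonic bases (y axis, number of bases from 0) of each of the 10 SR genes within peaks of both lists (grey), of the *Wtap* flox/flox list only (blue) or of the *Wtap*-BKO list only (orange). *Srsf6* has 180 shared bases and 691 bases in *Wtap*-BKO peaks only, *Srsf9* has 178 shared bases and no others, and *Srsf2* and *Srsf3* have none.

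*Srsf1* (ENSMUSG00000018379, plus strand of chromosome 11) encodes the SR protein first purified as a general splicing factor, which also acts in alternative splicing and in translation. Its 1 control peak, chr11:88050975-88051424, covered 450 bases. The fold enrichment of immunoprecipitate over input was 3.05, and the log10 of the false discovery rate (log10 FDR) was −42.0, stronger than 87.0% of the control peaks. The *Wtap*-BKO list placed 2 peaks there, with 88 bases of the control peak left uncovered. The first, chr11:88050975-88051125, began at the same base and had a fold enrichment of 1.70 and a log10 FDR of −6.43. The second, chr11:88051214-88051453, had 7.08 and −15.0. Neither ranked as high in its list as the control peak did, with 50.6% and 74.0% of the *Wtap*-BKO peaks weaker.

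Another 3 *Wtap*-BKO peaks on *Srsf1* lay nearer the 5ʹ end, where the control list had no peak for 1762 to 3123 bases. The strongest of them, chr11:88047672-88047851, began 1173 bases from the 5ʹ end of the gene and had a fold enrichment of 12.9 and a log10 FDR of −21.5. It ranked above 81.7% of the *Wtap*-BKO list and was the strongest *Wtap*-BKO peak of this gene. The other two were weak, at chr11:88048577-88048727 with a fold enrichment of 2.04 and at chr11:88049092-88049212 with 1.57, and ranked above 42.4% and 6.74% of the list.

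*Srsf9* (ENSMUSG00000029538, plus strand of chromosome 5), the closest relative of *Srsf1* in the family, encodes a smaller protein with a short arginine/serine domain. It had 1 peak per list, and both covered the same 178 bases, chr5:115327177-115327354, starting 14 bases from the 5ʹ end of the gene. The fold enrichment was 82.4 in control and 44.0 in *Wtap*-BKO mice. These were the highest values of any SR gene in either list, above 99.8% and 99.5% of their lists. By log10 FDR, with −23.4 and −30.0, the peaks ranked above 76.5% and 87.1% of the lists, so the order of the genotypes was opposite by fold enrichment and by false discovery rate. Fold enrichments of lists made separately share no scale, and the difference between 82.4 and 44.0 is not a measured change.

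*Srsf4*, *Srsf5* and *Srsf6* encode a subgroup of closely related SR proteins with a second, divergent RNA recognition motif. *Srsf4* (ENSMUSG00000028911, plus strand of chromosome 4), whose protein has the longest arginine/serine domain of the subgroup, had its strong peaks at the 3ʹ end. The control peaks, chr4:131900300-131900809 and chr4:131900988-131901706, covered 510 and 719 bases and had fold enrichments of 5.61 and 4.40 with log10 FDRs of −41.9 and −39.1. The *Wtap*-BKO list had 1 peak in 2 blocks, chr4:131900127-131901287, that covered 1048 bases, all 510 of the first control peak and part of the second. That peak had a fold enrichment of 6.36 and a log10 FDR of −88.2, above 97.0% of the *Wtap*-BKO list, whereas the 2 control peaks ranked above 86.9% and 85.8% of theirs. The other *Wtap*-BKO peak there, chr4:131901407-131901676, had 2.93 and −16.0 and lay wholly within the second control peak. Another spliced *Wtap*-BKO peak, chr4:131892115-131897728, had no partner and was weak, at a fold enrichment of 1.83 and log10 FDR of −2.19.

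All 4 peaks at the 3ʹ end of *Srsf4* shared bases with peaks assigned to an unnamed gene on the opposite strand, ENSMUSG00000085667. Its control peaks had fold enrichments of 5.61 and 4.51, and its *Wtap*-BKO peaks had 7.28 and 2.86, close to the values of the *Srsf4* peaks they overlapped. The library kit is not stated to keep the strand, so reads of *Srsf4* and of this gene cannot be told apart. Without these peaks, 10 of 11 control and 11 of 20 *Wtap*-BKO peaks of the SR genes were found in the other list. The remaining SR gene peaks overlapped no peak assigned to a different gene.

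*Srsf5* (ENSMUSG00000021134, plus strand of chromosome 12), a gene induced by growth signals such as insulin, carried the strongest control peak of the family by false discovery rate. At chr12:80949818-80950177, near the 3ʹ end, it covered 360 bases at a fold enrichment of 14.0 and log10 FDR of −217, above 98.5% of the control list. The *Wtap*-BKO peak, chr12:80949907-80950147, lay wholly inside it, covered 241 bases and had 4.20 and −60.4. It ranked above 94.5% of the *Wtap*-BKO list, so the peak stood near the top of both lists. A weak peak in the 5ʹ part was also shared, with fold enrichments of 1.87 and 1.98 and 151 bases in common. At the 5ʹ end itself the *Wtap*-BKO list alone had a peak, chr12:80945504-80945684, that began 9 bases from the end of the gene and 876 bases away from the nearest control peak. Its fold enrichment was 7.13 and its log10 FDR −19.9, above 80.1% of the *Wtap*-BKO list.

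*Srsf6* (ENSMUSG00000016921, plus strand of chromosome 2), a regulator of alternative splicing, had a 5ʹ-end peak that covered the same 180 bases in both lists, chr2:162931528-162931707, starting 20 bases from the end of the gene. The fold enrichment was 5.11 in control and 3.05 in *Wtap*-BKO mice, and the log10 FDRs were −16.9 and −11.3. The peak ranked above 69.4% and 66.7% of the lists, a small difference in rank. Peaks with identical bases in both lists were found for *Srsf6* and *Srsf9* among the 13 control peaks of SR genes, and for 4.81% of the whole control list. *Wtap*-BKO mice had 3 more *Srsf6* peaks with no partner. At chr2:162934492-162934821 a peak of 330 bases had a low fold enrichment, 1.88, but a log10 FDR of −16.6, stronger than 76.4% of the list. Those at chr2:162932102-162932192 and chr2:162932431-162932700 had fold enrichments of 2.36 and 8.72 and ranked above 24.6% and 28.1% of the list by false discovery rate. Fold enrichment and false discovery rate thus ordered these 3 peaks differently.

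*Srsf2*, *Srsf3* and *Srsf7* encode short SR proteins. SRSF3 and SRSF7 also serve as adapters for mRNA export, and SRSF2 is a component of nuclear speckles that stays in the nucleus. No peak of any gene lay within *Srsf2* (chromosome 11, 116849897 to 116853675) or *Srsf3* (chromosome 17, 29032660 to 29043372) on either strand in either list. The nearest listed peak to *Srsf2* was 711 bases away in the control list and 6598 bases away in the *Wtap*-BKO list. For *Srsf3* the distances were 47726 and 35070 bases. Of 21900 protein-coding genes in the gene table, 44.4% had a peak in either list. A missing peak means only that none passed the threshold of the authors, and it cannot be told apart from too few reads on the transcript.

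*Srsf7* (ENSMUSG00000024097, minus strand of chromosome 17), which encodes the member with a zinc knuckle, had 1 peak per list at the 5ʹ end. The control peak, chr17:80207185-80207305, covered 121 bases, at a fold enrichment of 6.52 and log10 FDR of −10.4. The *Wtap*-BKO peak, chr17:80206009-80207305, contained all of them and continued over a splice junction, for 151 bases in 2 blocks. It had 8.72 and −12.6. The ranks were above 57.6% of the control and 69.6% of the *Wtap*-BKO list, and the lengths differed by 30 bases.

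*Srsf10* (ENSMUSG00000028676, plus strand of chromosome 4) encodes an SR protein that represses splicing when it is dephosphorylated. It was the 1 gene with fewer *Wtap*-BKO peaks. The shared peak was at chr4:135858847-135859057 in control and at chr4:135858937-135859087 in *Wtap*-BKO mice, with 121 bases in common. Fold enrichments were 3.97 and 3.98, but the log10 FDR was −9.06 in control and −3.01 in *Wtap*-BKO mice. It ranked above 54.2% of the former list and 19.9% of the latter, the widest gap between the strongest peaks of any SR gene. A second control peak, chr4:135867185-135867365, had no partner within 8097 bases. It was close to the threshold of the list, at a fold enrichment of 2.46 and log10 FDR of −2.05, stronger than only 3.91% of the list.

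*Srsf11* (ENSMUSG00000055436, minus strand of chromosome 3) encodes an arginine/serine-rich protein that interacts with U2AF and is less like the classical members. Each of its 3 control peaks was found in the *Wtap*-BKO list. The strongest, a spliced peak of 3 blocks at chr3:158011910-158012814 in control and chr3:158011970-158012934 in *Wtap*-BKO mice, shared 480 bases. The fold enrichments were 4.11 and 6.52, and the log10 FDRs of −63.5 and −138 ranked above 92.0% and 98.6% of the lists. The *Wtap*-BKO peak was the strongest of the family in that list. The spliced peak upstream, with fold enrichments of 1.82 and 4.34, ranked above 13.4% of the control and 63.2% of the *Wtap*-BKO list. For the peak at chr3:158023592-158023682 in control mice, 91 bases long, and its *Wtap*-BKO partner of 271 bases, the ranks were 4.03% and 49.0%. All 3 pairs thus ranked higher in the *Wtap*-BKO list. A further *Wtap*-BKO peak, chr3:158025196-158025436, was weak, with a fold enrichment of 2.01 and a rank above 16.2% of the list.

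Ranks of the peaks across the family were then set side by side. The rank used is the percentage of the own list with a weaker false discovery rate. The SR gene peaks ranged from 3.91% to 98.5% in the control list, with a median of 69.4%, and from 6.74% to 98.6% in the *Wtap*-BKO list, with a median of 64.9%. By fold enrichment the SR gene peaks stood lower, with median ranks of 29.4% and 35.8%. Their median fold enrichment in control mice was 4.11, against 6.58 over the whole list. The 13 *Wtap*-BKO peaks found in the other list had a median rank of 69.6%, and the 9 not found had 28.1%. Peaks without a partner were thus mostly the weaker ones, with exceptions on *Srsf1*, *Srsf5* and *Srsf6*. Under a false discovery rate of 1e-05, all 9 control peaks and 11 of 15 *Wtap*-BKO peaks were found in the full other list, against 79.6% and 84.6% of all such peaks. With that limit in both lists the numbers were 8 of 9 and 9 of 15, against 66.2% and 71.9%. The 4 *Wtap*-BKO peaks under 1e-05 without a partner were 2 on *Srsf1* and 1 each on *Srsf5* and *Srsf6*.

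The strongest peak of each gene ranked higher in the control list for *Srsf1*, *Srsf5* and *Srsf10* and higher in the *Wtap*-BKO list for *Srsf4*, *Srsf6*, *Srsf7*, *Srsf9* and *Srsf11*. Thus 3 of 8 SR genes ranked higher in the control list, against 48.2% of the 8014 genes with peaks in both lists. For *Srsf6* the strongest *Wtap*-BKO peak had no partner, and the peak with the same bases in both lists ranked higher in the control list. With only peaks found in the other list ranked, the number was 4 of 8. Ranked by fold enrichment, *Srsf5* and *Srsf9* (2 of 8) did so, against 50.7% of all genes. The median difference in rank, control minus *Wtap*-BKO, was −6.78 percentage points over the 8 SR genes and −0.358 over all genes. Apart from *Srsf10*, with 34.3 points, the differences of the SR genes lay between −11.97 and 5.29 points.

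**Figure D3:**
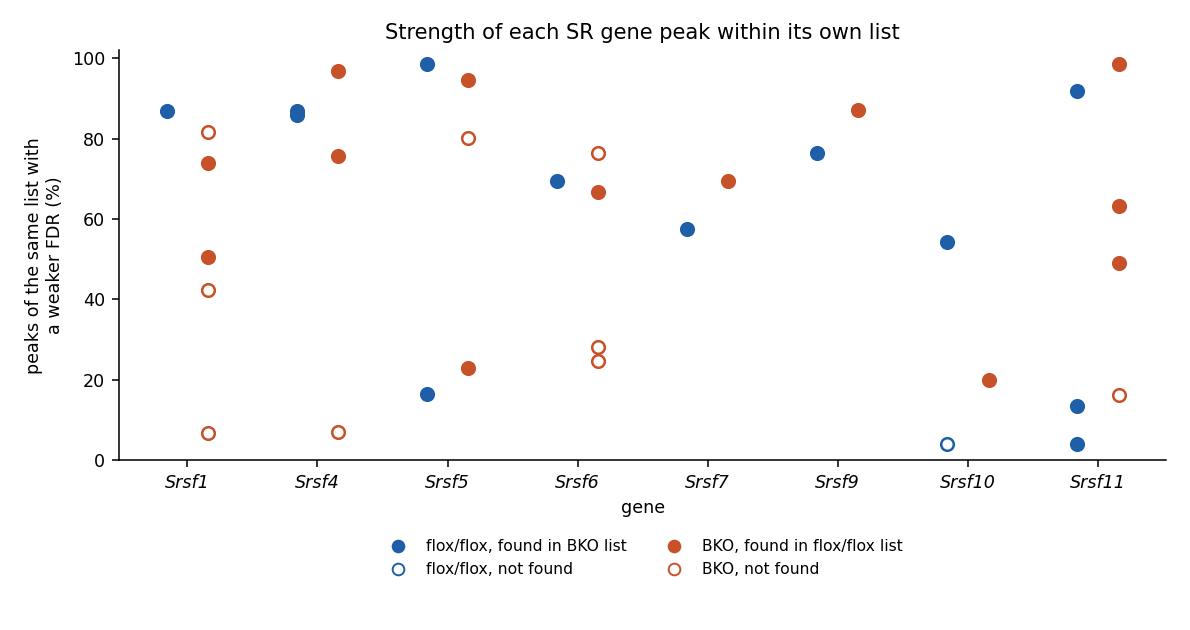
Each point is 1 peak of an SR gene, placed by the share of its own list with a weaker false discovery rate (y axis, %), in blue for *Wtap* flox/flox and orange for *Wtap*-BKO. Filled points share bases with a peak of the other list and open points do not. Open orange points reach 81.7% on *Srsf1*, 80.1% on *Srsf5* and 76.4% on *Srsf6*, and the 1 open blue point, on *Srsf10*, is at 3.91%.

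Along the genes, the SR peaks fell near the 5ʹ end, near the 3ʹ end or in between. The centre of 3 of 13 control peaks, on *Srsf6*, *Srsf7* and *Srsf9*, lay no more than 500 bp from the 5ʹ end, against 8.21% of all peaks inside genes. In the *Wtap*-BKO list *Srsf5* joined them, making 4 of 22 peaks, against 9.51%. *Srsf7* and *Srsf9* had their only peaks there in both genotypes. Which base was modified within these 5ʹ-end peaks was not determined. Within 500 bp of the 3ʹ end lay the centre of 1 control peak, on *Srsf4*, against 11.9% of all peaks, and of 2 *Wtap*-BKO peaks, on *Srsf4* and *Srsf5*, against 10.2%. The window was chosen after the peaks were seen. The *Srsf5* peak in control mice missed it with its centre 509 bp from the 3ʹ end, and the strongest control peak of *Srsf11* had its centre 1265 bp from that end. The SR genes with peaks span from 5013 to 28196 bp of the genome, and distances include introns. For genes spanning 3779 to 28196 bp, the range of all 10 members, the general shares differed from those above. Near the 5ʹ end they were 9.08% of control and 11.3% of *Wtap*-BKO peaks, and near the 3ʹ end 15.4% and 13.1%.

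Other genes of SR-dependent splicing were then described from lists set by name: 66 genes for SR-like activators, SR protein kinases and nuclear import, SR-related proteins, hnRNP proteins, which often oppose SR proteins at splice sites, and U1, U2AF and U2-associated proteins. Of these, 60 had a peak, 54 in both lists, 5 in the *Wtap*-BKO list only and 1 in the control list only. Among all 11431 genes with a peak, 70.1% had one in both. The whole lists held peaks on similar numbers of genes, 9732 in control and 9713 in *Wtap*-BKO mice. Their 159 control peaks were found in the *Wtap*-BKO list for 142 (89.3%), and their 185 *Wtap*-BKO peaks in the control list for 141 (76.2%). Over the whole lists these shares were 67.8% and 68.0%. They were 76.8% and 76.6% over genes with peaks in both lists, a set to which the 66 genes were not limited. Among the 54 genes, 18 had more *Wtap*-BKO peaks, 11 had fewer and 25 had as many, near the 26.3%, 23.2% and 50.6% of all genes with peaks in both lists. The strongest peak ranked higher in the control list for 13 of the 54, and by fold enrichment for 24. The median difference in rank was −6.35 percentage points. Against the 48.2% and 50.7% of all genes given above, the lower number by false discovery rate was thus much less apparent by fold enrichment.

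By group, the SR kinases SRPK and CLK, with DYRK1A, PRPF4B and the import receptors TNPO1 and TNPO3, had 18 control peaks on 9 of 10 genes, and all 18 were found in the *Wtap*-BKO list. They had 26 *Wtap*-BKO peaks, of which 18 (69.2%) were found. For this group and those that follow, the shares found over the whole lists were 67.8% of control and 68.0% of *Wtap*-BKO peaks. *Tnpo3*, which encodes the transportin for phosphorylated SR proteins, had 2 *Wtap*-BKO peaks and no control peak. The stronger ranked above 43.0% of the *Wtap*-BKO list. SR-related proteins had the most peaks, led by the speckle scaffold genes *Son*, with 11 control and 10 *Wtap*-BKO peaks, and *Srrm2*, with 9 and 10. Of this group, 55 of 59 control and 55 of 65 *Wtap*-BKO peaks were found in the other list. *Rnps1* alone had its peak in *Wtap*-BKO mice only, which ranked above 5.17% of that list. The SR-like activators (*Tra2a*, *Tra2b* and the SCAF genes) had 20 and 21 peaks with 18 found in each direction, and *Srsf12* had none.

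Among hnRNP genes, 41 of 50 control and 41 of 57 *Wtap*-BKO peaks were found in the other list. *Hnrnpa1* and *Hnrnph1* had peaks in *Wtap*-BKO mice only, the strongest of which ranked above 53.1% and 61.0% of that list. *Ptbp1* had 1 in control mice only, which ranked above 6.97% of the control list. U1, U2AF and U2-associated genes had 12 and 16 peaks, with 10 and 9 found. *Snrpa* had 2 in *Wtap*-BKO mice only, the stronger of which ranked above 30.5% of that list. Besides *Srsf12*, no peak was listed for *Luc7l*, *Hnrnpa3*, *Ptbp2*, *Snrpc* and *U2af1*. These counts describe 1 pool per genotype, so no difference between them was tested.

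**Figure D4:**
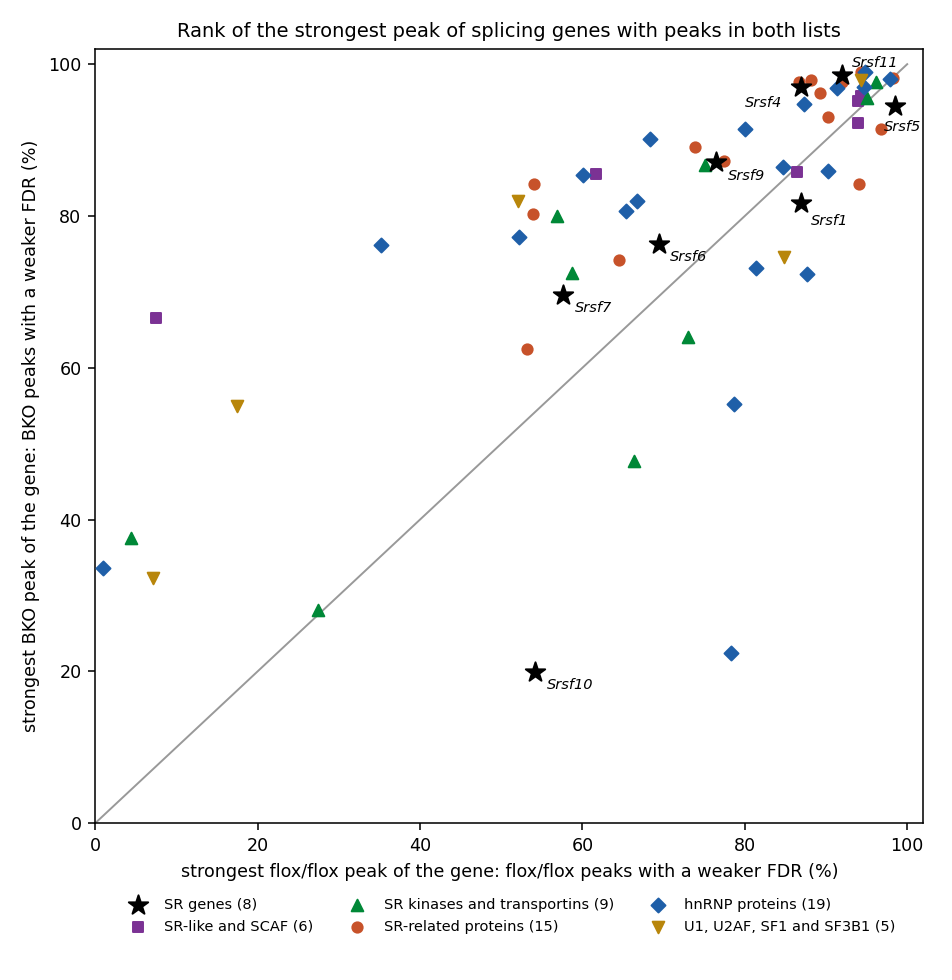
Rank of the strongest peak of each splicing gene with peaks in both lists, as the share of the own list with a weaker false discovery rate (%), in *Wtap* flox/flox (x axis) and *Wtap*-BKO mice (y axis). Stars are the 8 SR genes, other symbols the 54 genes of the other splicing groups, with the number per group in the legend, and the grey line marks equal ranks. Above the line lie 5 of 8 SR genes, *Srsf6* through a *Wtap*-BKO peak without a partner, and 41 of the 54 others, and *Srsf10* lies far below it at 54.2% and 19.9%.

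The tissue label was set against peaks of marker genes. All 12 brown adipocyte markers, *Ucp1* and *Cidea* among them, had a peak, with 35 peaks in control and 33 in *Wtap*-BKO mice. Peaks in both lists were present for 11, of which 5 had more *Wtap*-BKO peaks, 1 had fewer and 5 had as many. Over all genes with peaks in both lists, these shares were 26.3%, 23.2% and 50.6%. The totals include *Prdm16*, with 8 control peaks and 1 *Wtap*-BKO peak, and *Elovl3*, with 2 and 0. More *Wtap*-BKO peaks were listed for *Pparg*, with 1 and 4, and *Ucp1*, with 1 and 2. The same held for *Ppargc1a* (3 and 4), *Plin1* (5 and 6) and *Fabp4* (4 and 5). Markers of other cells of the tissue or its surroundings had more peaks in total in *Wtap*-BKO mice. The control and *Wtap*-BKO lists had 2 and 11 peaks on 8 skeletal muscle genes, 3 and 13 on 6 macrophage genes, and 4 and 8 on 6 T/B lymphocyte genes, while *Ckm*, *Cd79a* and *Cd3e* had none. In these 3 groups, 2, 2 and 3 genes had peaks in both lists, and 5, 4 and 1 in the *Wtap*-BKO list only. Among all 11431 genes with a peak, 70.1% had one in both. The whole lists held 18400 control and 18693 *Wtap*-BKO peaks. SR genes are widely expressed, and the part of cell composition in the SR gene counts was not tested. From single-nucleus RNA sequencing of iBAT at the same age, the paper reports higher proportions of macrophages and T/B lymphocytes in *Wtap*-BKO mice. In the bulk peak lists themselves, a change in the number of cells of a type and a change in RNA per cell cannot be told apart.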

How the data were processed

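MeRIP-seq peaks of iBAT were analysed for both genotypes, 1 pooled immunoprecipitate and input per genotype. The submitters' processing notes name fastp 0.19.11, BWA 0.7.12, HOMER 4.9.1 and GRCm38.p6, and the methods name MACS2 for peak detection, although the spliced layout is that of exomePeak. Per peak, the authors deposited a p-value, a fold enrichment (the ratio of immunoprecipitate over input, whose scaling is not described) and log10 scores of the p-value and the FDR. All listed peaks had a false discovery rate under 0.05, and mice were pooled before peaks were called.

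Peaks were matched by exonic blocks on the same strand in Python 3.11.15 (pandas 2.3.3, numpy 2.4.6) and drawn with matplotlib 3.10.9. The matching was tested on simulated data, in which each control peak was kept, shortened, moved or removed and could meet only its own copy. Strand, neighbouring peaks and several partners were not part of that test. Ranks are within the own list. All 35 SR gene peaks lay inside their gene in a RefSeq gene table of GRCm38.p6. The named genes are all 10 members, and of the other splicing genes those with peaks in 1 list only and those with the most peaks. Members and lists were chosen with earlier results of these data known. Alternatives varied the shared bases, the peak span, the false discovery rate, the ranking and the identifiers. No sequence was used here.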

Additional observations from a re-analysis of the deposited data

How the results depend on the processing

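The count of *Wtap* flox/flox SR gene peaks found in the *Wtap*-BKO list was between 8 and 13 under the 6 alternatives tried. The total of peaks also changed, from 9 to 13, and the share found was 88.9% to 100%. SR genes with peaks in both lists numbered between 7 and 8 under 2 alternatives. The count of *Wtap*-BKO peaks found in the *Wtap* flox/flox list was between 9 and 13 under 5 alternatives, of totals from 15 to 22 (54.5% to 73.3%). It rose to 22 of 22 when any peak of the same gene sufficed, since all 8 genes have peaks in both lists. The number of SR genes with the higher rank in *Wtap* flox/flox mice was 2 by fold enrichment and 4 of 8 by the median rank or among peaks found in the other list. Leaving out the *Srsf4* peaks that overlap the opposite strand was chosen after seeing the data. No paired analysis was possible because each genotype has 1 pooled sample, and for the same reason no replicate could be left out. The depth is unknown, and its effect on the counts was not tested.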
